A study of Mus musculus with 4 samples.

Results

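The genes described here are 35 members of the amino acid response: ATF4 with its stress effectors, the enzymes of serine synthesis and mitochondrial one-carbon metabolism that ATF4 controls, and the cytosolic aminoacyl-tRNA synthetases. They were chosen as the non-control spots whose gene name in the scanner files equals a member's symbol. All 35 were on the array, among 28090 gene names, and all 35 were among the 15313 genes tested. They fall into 10 genes of the stress response, 5 enzymes of serine and one-carbon metabolism and 20 tRNA synthetases.

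Expression was compared between small intestinal crypts taken directly from the mouse and organoids grown from crypts of the same mouse for 1 week, in 2 mice. The crypts were a fraction freed from the tissue with EDTA and strained to remove villi, and the organoids grew in Matrigel with EGF, R-spondin and Noggin, without other cells. The labels used here state no strain, age or genetic change for the mice. RNA from both tissues of a mouse was hybridised together on each 2-colour array. Each mouse had 1 array with the organoid in Cy5 and 1 with the organoid in Cy3, so that n = 2 mice and the 4 arrays are technical pairs.

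ATF4 is a transcription factor of the basic leucine zipper class whose mRNA is translated mainly when the initiation factor eIF2 is phosphorylated, as happens when amino acids are short, the endoplasmic reticulum is stressed or mitochondria fail. Much of its control is therefore on translation rather than on the amount of its mRNA. With C/EBP partners it binds composite promoter elements and raises genes that make, import and load amino acids onto tRNA, among them those of serine synthesis, which supplies one-carbon units to dividing cells. In the intestine, stem and progenitor cells of the crypt divide throughout life, and differentiated cells of the villus do not.

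The composite element was searched for in RefSeq promoter windows (GRCm38.p6, from 250 bases before to 50 bases after the start), on both strands. The core searched was TGATGNAA, and the longer form TGATGNAAT contains it. A window was matched for 28 of the 35 members. None was matched for Cars, Hars, Lars, Nars, Rars, Vars and Wars. The core lay in 9 of the 28 windows (32.1%), those of Trib3, Chac1, Asns, Nupr1, Aars, Gars, Iars, Tars and Yars, against 4.51% of 27025 genes with a window and 4.13% of 17492 protein-coding genes. The longer form lay in those of Nupr1, Aars, Gars and Iars, 4 of 28, against 1.08% of all genes with a window. The core was in 4 of 10 windows of the stress response, 0 of 5 of the serine and one-carbon enzymes and 5 of 13 of the synthetases. Such a match is a description of letters, not of binding.

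Stretches around the core are printed for 3 members whose mRNA was higher in organoids (Asns, Nupr1, Iars) and for 3 whose mRNA did not pass the test (Chac1, Trib3, Aars), so that the same core can be seen in both. Each is read 5′ to 3′ on the gene's strand, and capitals mark the core, in the orientation in which it lies.
Asns, chr6:7693210-7693269, minus strand: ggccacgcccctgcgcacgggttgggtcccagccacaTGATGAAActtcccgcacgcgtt
Nupr1, chr7:126625547-126625606, minus strand: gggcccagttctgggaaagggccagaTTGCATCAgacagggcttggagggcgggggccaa
Iars, chr13:49682126-49682155, plus strand: cactgtcagtaTTGCATCAcctccagacgc
Chac1, chr2:119351023-119351082, plus strand: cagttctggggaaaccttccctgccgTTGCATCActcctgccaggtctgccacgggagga
Trib3, chr2:152344028-152344057, minus strand: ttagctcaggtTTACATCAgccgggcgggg
Aars, chr8:111033704-111033763, plus strand: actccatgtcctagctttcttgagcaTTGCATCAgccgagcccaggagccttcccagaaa
In Chac1, Nupr1 and Aars the core lay upstream of the start, beginning at -193, -110 and -112. The Aars window held another core past the start, beginning at 10, which is not printed. In Asns it began at -23, and in Trib3 and Iars it lay just past the start, beginning at 15 and 8.

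Ratios are log2 of organoid over crypt, so that 1 is a doubling, and a gene passed the test when its Benjamini-Hochberg adjusted p by limma over all 15313 genes was under 0.05. Of the 35 members, 10 were higher in organoids, 0 were lower and 25 did not pass, where 5.61% of all genes were higher (859 genes) and 5.60% lower (858 genes). At an unadjusted p under 0.05 by limma there were 14 of the 35 members, and 4278 of all 15313 genes. The serine and one-carbon enzymes had 4 of 5 genes higher with a median of 1.28, the stress response 4 of 10 with a median of 0.80, and the synthetases 2 of 20 with a median of 0.20. The median of all genes tested was 0.03. At least a 2-fold rise in both mice was seen for Atf5, Asns, Psat1 and Phgdh, 4 of 35 members, against 1.64% of all genes. All 35 were well above background in all 8 channels, so none of these values is a bound. Both organoid levels lay above both crypt levels in 17 of 35 members, where 31.1% of all genes did, and below them in 1 (Kars), where 26.6% did. In bulk RNA, fewer cells of a type and less RNA per cell cannot be told apart.

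**Figure D1:**
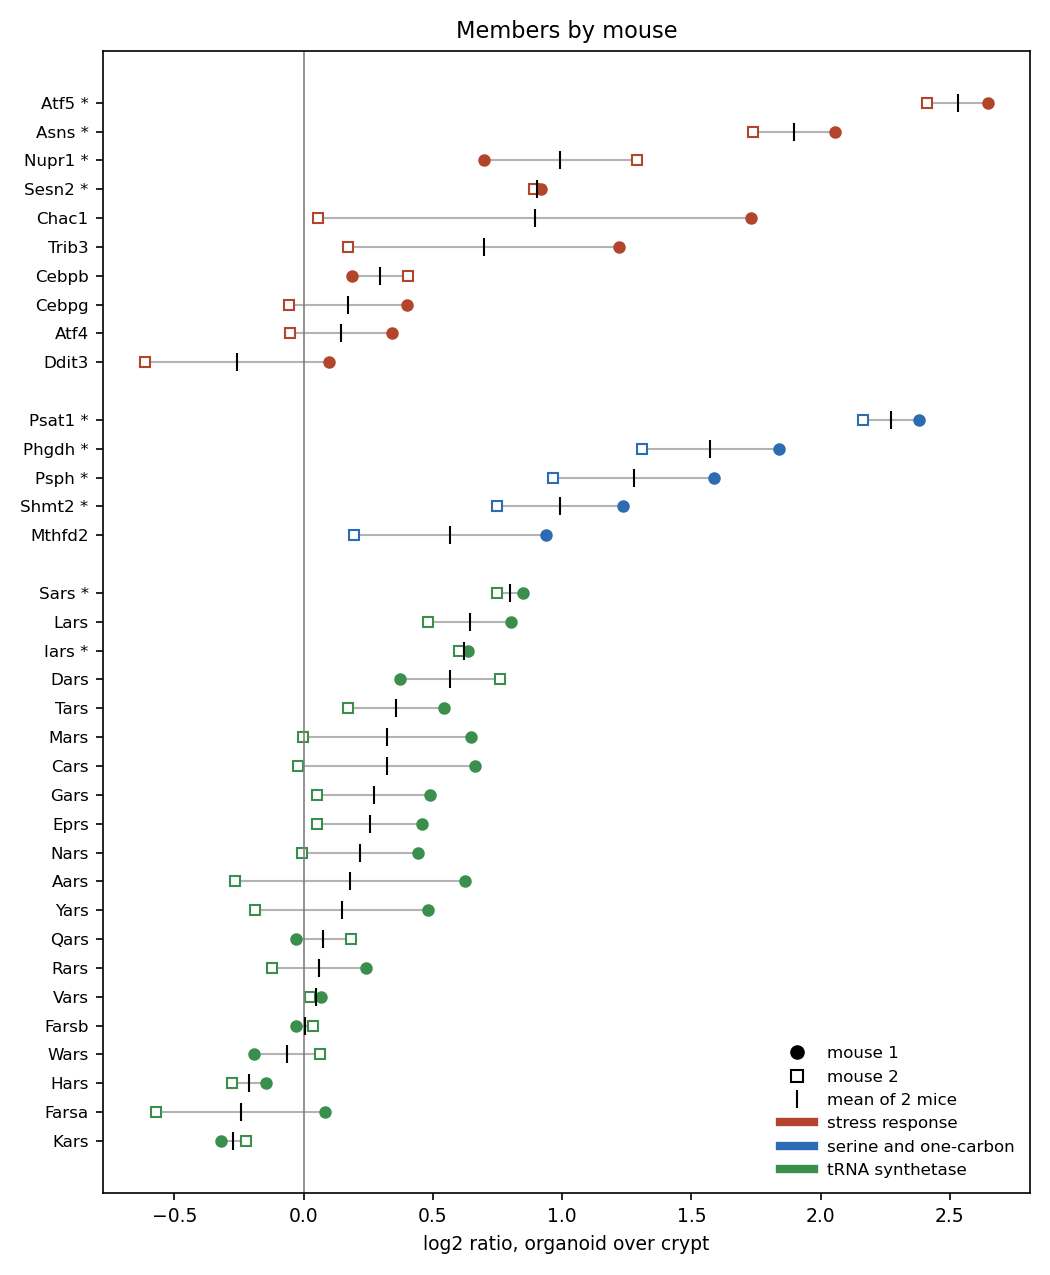
Log2 ratio of organoid over crypt for each of the 35 members in mouse 1 (filled circle) and mouse 2 (open square), with a black tick at the mean of the 2 mice, coloured by group. An asterisk marks the 10 genes that passed the test. The serine and one-carbon enzymes lie right of 0 in both mice. Of the 20 synthetases, 10 have opposite signs in the 2 mice, where 4738 of all 15313 genes tested do.

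Among the regulators, Atf4 itself did not pass the test. Its ratio was 0.09 on the array of mouse 1 with the organoid in Cy5 and 0.60 with the organoid in Cy3, and -0.42 and 0.32 on those of mouse 2. The arrays fell on both sides of 0, and the mean was 0.15 ± 0.28 (SD, n = 2 mice) with an adjusted p of 0.616 by limma. The 95% interval ran from -0.25 to 0.54, so that a modest rise or fall of Atf4 mRNA is not excluded by these arrays. The normalized log2 level of Atf4 was 11.41 and 11.40 in the crypts of mouse 1 and mouse 2 and 11.76 and 11.35 in their organoids, and the tissues overlapped. The probe lies at chr15:80087079-80087138 in mm9, per the files; exon and UTR positions were not assigned.

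Atf5, a related leucine zipper factor that is itself translated under eIF2 phosphorylation and serves the response to mitochondrial stress, rose more than any other member. Its ratio was 2.73 and 2.56 on the arrays of mouse 1 and 2.43 and 2.39 on those of mouse 2, in each pair with the organoid in Cy5 given first. All 4 arrays were high and close together. The mean was 2.53 ± 0.16 (SD, n = 2 mice), a 5.77-fold rise, with an adjusted p of 0.0018 by limma. The log2 level was 10.84 and 10.95 in the crypts and 13.49 and 13.36 in the organoids, with no overlap. The probe lies at chr7:52067718-52067777 in mm9.

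The C/EBP partners of ATF4 gave small values. Cebpb had a ratio of 0.30 ± 0.15 (SD, n = 2 mice; adjusted p = 0.236 by limma), but its other tested probe gave -0.32, so its direction depends on the probe. Cebpg, which dimerizes with ATF4, had a ratio of 0.17 ± 0.32 (adjusted p = 0.569 by limma), and its other probes gave 0.25 and -0.16. Ddit3 encodes CHOP, the factor that links a prolonged stress response to cell death. Its ratio was 0.03 and 0.17 in mouse 1 and -0.69 and -0.53 in mouse 2, so that each mouse's arrays paired closely while the mice differed. The mean of -0.26 ± 0.50 (SD, n = 2 mice) did not pass (adjusted p = 0.484 by limma).

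Of the effectors, Asns, which makes asparagine from aspartate and is a standard readout of the amino acid response, rose in both mice. Its ratio was 2.11, 2.00, 1.94 and 1.54 in the order of arrays used above. Every array showed more than a doubling, and the lowest was that of mouse 2 with the organoid in Cy3. The mean was 1.90 ± 0.22 (SD, n = 2 mice), a 3.72-fold rise, with an adjusted p of 0.0036 by limma. The log2 level went from 13.29 and 13.36 in crypts to 15.35 and 15.09 in organoids. Its promoter stretch is shown above, and its probe lies at chr6:7625194-7625253 in mm9.

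Sesn2, a leucine sensor that restrains mTORC1, had ratios of 0.86, 0.98, 1.03 and 0.75. The 2 mouse means, 0.92 and 0.89, were among the closest of any member, and the mean was 0.90 ± 0.02 (SD, n = 2 mice; adjusted p = 0.0158 by limma). Its other tested probe gave 0.56, with 0.79 in mouse 1 and 0.33 in mouse 2. Nupr1, a small chromatin protein induced by many stresses, had ratios of 0.54, 0.85, 1.26 and 1.32. Here mouse 2 was higher than mouse 1, the reverse of most members, and the mean was 0.99 ± 0.42 (adjusted p = 0.0314 by limma). Its crypt levels differed between the mice (12.42 and 11.80), whereas its organoid levels were 13.12 and 13.09.

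Trib3 and Chac1 differed most between the mice among the effectors. Trib3 encodes a pseudokinase that is induced by ATF4 and CHOP and feeds back on ATF4. Its ratio was 1.22 and 1.22 in mouse 1 and 0.11 and 0.23 in mouse 2, and its mean of 0.70 ± 0.74 (SD, n = 2 mice) did not pass (adjusted p = 0.165 by limma). The other Trib3 probe gave 0.67 in mouse 1 and 0.06 in mouse 2. Chac1, which breaks down glutathione, had a ratio of 1.96 and 1.50 in mouse 1 and 0.21 and -0.10 in mouse 2. Both arrays of mouse 1 were thus high and both of mouse 2 near 0, and the mean of 0.89 ± 1.18 did not pass (adjusted p = 0.217 by limma). With 1 value per mouse, the difference between the mice has no test.

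**Figure D2:**
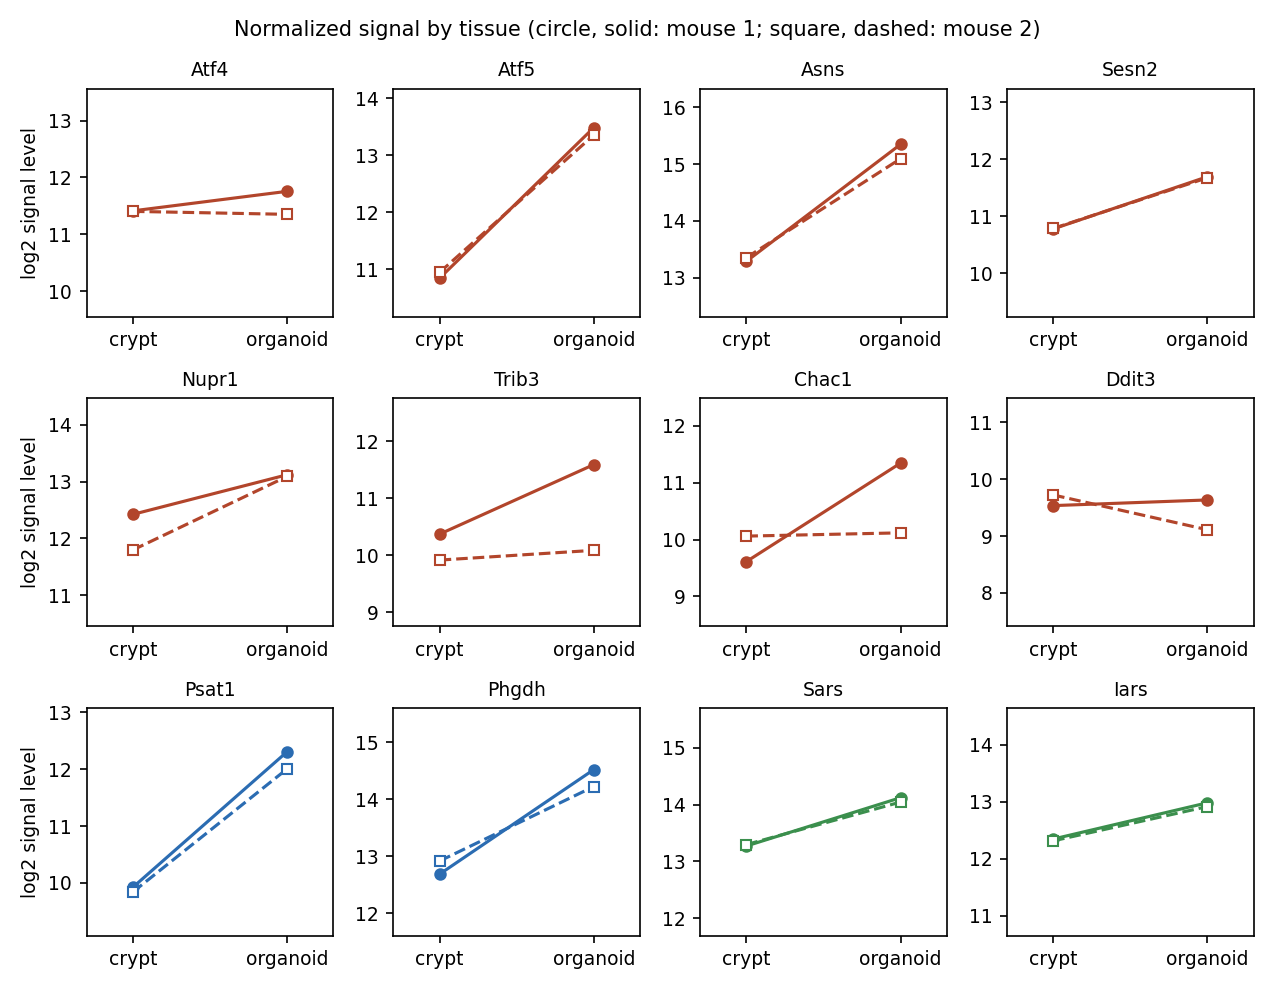
Normalized log2 signal level in crypt and organoid for 12 members, 1 line per mouse (filled circle and solid line, mouse 1; open square and dashed line, mouse 2), in red for the stress response, blue for serine synthesis and green for synthetases; each panel spans the same range of log2 units, and levels are not comparable between genes. Atf5, Asns and Psat1 rise steeply in both mice, Atf4 has nearly the same level in crypts and in the organoids of mouse 2, and Trib3 and Chac1 rise by more than 1 unit in mouse 1 and by less than 0.2 in mouse 2.

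The mRNAs of the enzymes for every step from 3-phosphoglycerate to serine were higher in organoids. Phgdh, the enzyme of the first and committing step, had ratios of 1.69, 1.99, 1.24 and 1.38, all above 1. Its mean was 1.57 ± 0.37 (SD, n = 2 mice), a 2.97-fold rise, with an adjusted p of 0.0084 by limma. Both other Phgdh probes rose alike, with 1.47 and 1.13. Its representing probe lies at chr3:98117098-98117157 in mm9.

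Psat1, the aminotransferase of the next step, had ratios of 2.59, 2.17, 2.19 and 2.13. The first of these, from mouse 1 with the organoid in Cy5, stood apart from 3 arrays that lay close together, and all 4 were more than 4-fold up. The mean was 2.27 ± 0.15 (SD, n = 2 mice), a 4.83-fold rise, with an adjusted p of 0.0023 by limma. The log2 level went from 9.92 and 9.84 in crypts to 12.31 and 12.00 in organoids, and its probe lies at chr19:15979970-15980029 in mm9.

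Psph, the phosphatase that releases serine, had ratios of 1.97, 1.21, 1.48 and 0.46. In each mouse the array with the organoid in Cy5 was the higher by more than 0.7, so the size of its rise depends on the dye orientation. The mean over dyes was 1.28 ± 0.44 (SD, n = 2 mice; adjusted p = 0.0175 by limma), and its other probe gave 1.31. Shmt2, which splits serine into glycine and a one-carbon unit in mitochondria, had ratios of 0.96, 1.51, 0.43 and 1.07, here with the organoid in Cy3 the higher. Its mean was 0.99 ± 0.34 (adjusted p = 0.0241 by limma). Mthfd2, the mitochondrial dehydrogenase that carries the one-carbon unit on, was above 0 on all 4 arrays (1.03, 0.84, 0.14 and 0.25). Its mean of 0.57 ± 0.53 did not pass (adjusted p = 0.155 by limma), with 0.94 in mouse 1 and 0.19 in mouse 2.

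The 20 tRNA synthetases, which load each amino acid onto its tRNA, lay between -0.27 and 0.80. Sars, which loads serine, had ratios of 0.71, 0.98, 0.64 and 0.86, and Iars, which loads isoleucine, 0.59, 0.69, 0.57 and 0.63. These were the only synthetases to pass, with 0.80 ± 0.07 (SD, n = 2 mice; adjusted p = 0.0223 by limma) and 0.62 ± 0.02 (adjusted p = 0.0421 by limma). The Iars call rested on the probe: its other tested probe gave 0.43 in mouse 1 and -0.00088 in mouse 2, and with the mean over probes (0.42) it did not pass. Lars, which loads leucine, had 0.64 ± 0.23 and missed the threshold (adjusted p = 0.0540 by limma), with its other tested probes at 0.42 and 0.56. Dars, for aspartate, had 0.57 ± 0.27 (adjusted p = 0.0816 by limma), and it was the one synthetase above 0.5 in which mouse 2 (0.76) exceeded mouse 1 (0.37).

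The other 16 synthetases lay within 0.36 of 0 and none passed. Positive means were those of Tars (0.36), Mars (0.32), Cars (0.32), Gars (0.27), Eprs (0.26), Nars (0.22), Aars (0.18), Yars (0.15), Qars (0.08), Rars (0.06) and Vars (0.05). Farsb, the beta subunit for phenylalanine, was at 0.0046, and Wars (-0.06), Hars (-0.21), Farsa (-0.24) and Kars (-0.27) were below 0. The 95% intervals of these 16 reached no higher than 0.82 (Cars) and no lower than -0.73 (Farsa). Aars, whose promoter stretch is shown above, had 0.45 and 0.80 in mouse 1 and -0.42 and -0.11 in mouse 2, so that the mice had opposite signs.

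Neither of the usual divisions of the synthetases set values far apart. The 8 members of the multisynthetase complex, a scaffold of synthetases in the cytosol, had a median of 0.29 and 1 gene higher, and the 12 others a median of 0.16 and 1 gene higher. The 9 class I enzymes had a median of 0.15 and the 10 class II enzymes 0.20, with 1 gene higher in each. Of the 3 scaffold proteins of the complex none passed. Aimp1 had 0.50 ± 0.24 (SD, n = 2 mice; adjusted p = 0.101 by limma) and Eef1e1 0.42 ± 0.23 (adjusted p = 0.141). The remaining scaffold, Aimp2, named after its value was seen, lay on the other side of 0 (-0.26 ± 0.04, adjusted p = 0.273 by limma).

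Mouse 1 exceeded mouse 2 in 28 of the 35 members (80.0%), including 15 of 20 synthetases, against 49.6% of all genes tested. The median of the synthetases was 0.45 in mouse 1 and 0.03 in mouse 2, that of the stress response 0.81 and 0.29, and that of the serine and one-carbon enzymes 1.59 and 0.97. The array of mouse 2 with the organoid in Cy5 was the lowest for the synthetases, with a median of -0.19 and 7 of 20 above 0. The same 2 RNAs with the dyes exchanged gave 0.21 and 17 of 20 above 0, and the arrays of mouse 1 gave 0.39 (13 of 20) and 0.48 (18 of 20). The share of all genes above 0 was 49.9% to 55.3% on the 4 arrays. Over the members, 15 of 35 were above 0 on all 4 arrays, where 25.5% of all genes were, and 0 were below 0 on all 4, where 21.7% were. The mice also differed in the level of the Paneth cell marker Pla2g2a, a gene chosen after its value was seen. Its log2 level was 15.98 and 10.46 in the crypts of mouse 1 and mouse 2, and 14.07 and 8.87 in their organoids. Its ratios were -1.90 and -1.58. No strain is stated in the labels, and whether the mice differ in genetic background was not tested.

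**Figure D3:**
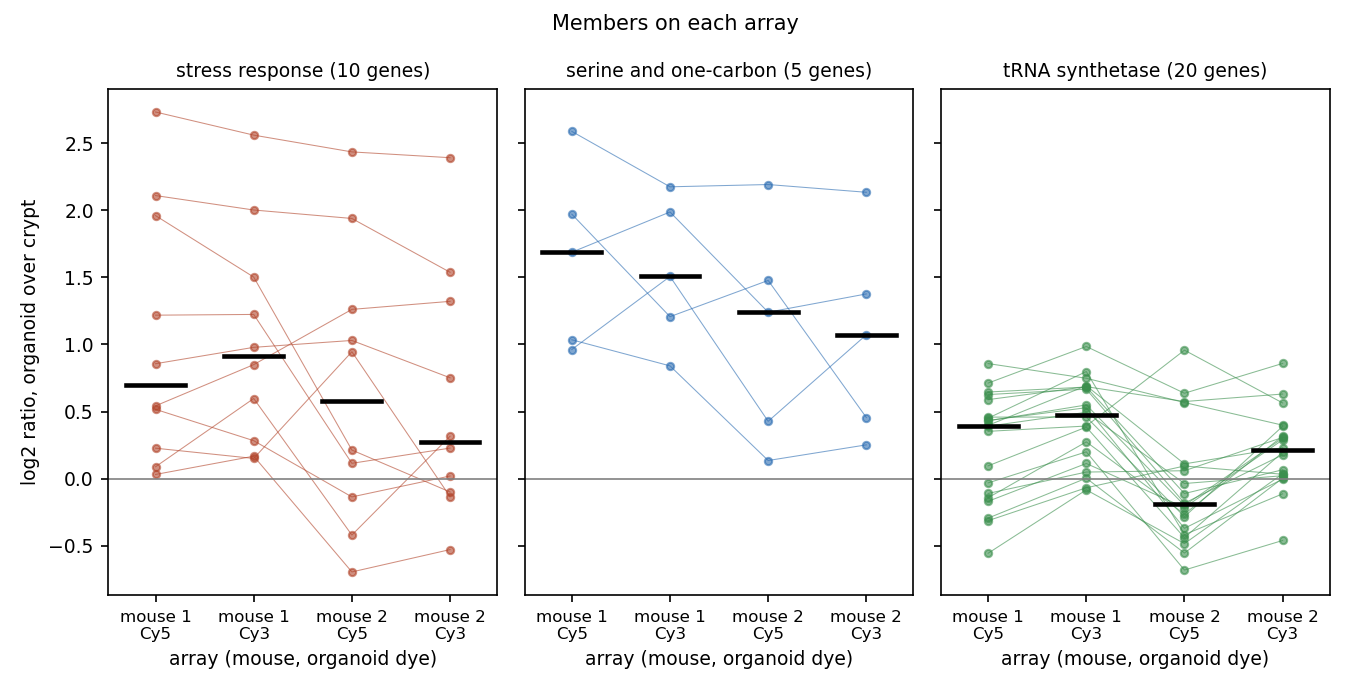
Log2 ratio of organoid over crypt on each of the 4 arrays for the members of each group, named by mouse and by the dye of the organoid; thin lines join a gene and black bars are medians. The synthetase median falls to -0.19 on the array of mouse 2 with the organoid in Cy5, while the serine and one-carbon enzymes are above 0 on every array.

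Other genes of the pathway were described from lists of known members. Of 14 further ATF4 targets tested, 8 were higher, 0 lower, and the median was 0.71. They included Stc2, a secreted stress-induced glycoprotein (3.00 ± 0.33, SD, n = 2 mice; adjusted p = 0.0018 by limma), Vldlr, a lipoprotein receptor (1.85 ± 0.24; adjusted p = 0.0040), Ddit4, an inhibitor of mTORC1 (1.78 ± 0.61; adjusted p = 0.0126), and Eif4ebp1, a repressor of translation initiation (1.70 ± 0.18; adjusted p = 0.0042). The stress cytokine Gdf15 (1.16 ± 0.42; adjusted p = 0.0205) and the autophagy receptor Sqstm1 (1.04 ± 0.17; adjusted p = 0.0137) also passed by limma. These genes were higher in both mice. Stc2 was well above background in 3 of 4 crypt channels, and its ratio was 4.63 with the scanner software's ratios and 4.59 with the deposited value table. The calls of Stc2, Vldlr and Eif4ebp1 held under all 8 other ways of processing, and the list had 3 to 8 genes higher under these.

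Of 7 amino acid transporters under ATF4, 3 were higher and 1 lower, with a median of 0.39. Slc1a4, a carrier of serine and alanine, had 1.37 ± 0.02 (SD, n = 2 mice; adjusted p = 0.0055 by limma), the glycine carrier Slc6a9 1.07 ± 0.61 (adjusted p = 0.0455) and Slc7a5, the light chain of the leucine exchanger LAT1, 0.85 ± 0.16 (adjusted p = 0.0215). Slc3a2, the heavy chain that LAT1 shares with other exchangers, fell by 1.13 on the log2 scale (-1.13 ± 0.13; adjusted p = 0.0104 by limma), and its other probe gave -0.70. The chains of LAT1 thus moved in opposite directions in both mice. Slc6a9 passed under only 2 of 8 other ways of processing (adjusted p = 0.0761 by limma with the scanner software's ratios), Slc7a5 under 6, and Slc1a4 and Slc3a2 under 7; with median centring none of these passed. Of 12 other enzymes of serine, glycine and folate metabolism, 2 were higher, with a median of 0.06. They were the mitochondrial folate enzymes Mthfd1l (1.34 ± 0.01; adjusted p = 0.0058 by limma) and Aldh1l2 (0.76 ± 0.18; adjusted p = 0.0305). Aldh1l2 was well above background in 1 of 4 crypt channels, so its size is uncertain: it was 2.22 with the scanner software's ratios and with the deposited value table. Its call was lost with median centring, with no filter on dim probes and on arrays with the organoid in Cy3 alone, and that of Mthfd1l with median centring.

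Genes of the ATF6 and XBP1 branches of the unfolded protein response, which make chaperones of the endoplasmic reticulum, gave no gene that passed the test as higher. Of 20 tested, 0 were higher and 7 lower, with a median of -0.64. Pdia3, a disulfide isomerase, fell to -1.19 ± 0.0032 (SD, n = 2 mice; adjusted p = 0.0081 by limma), Sdf2l1 to -1.19 ± 0.50 (adjusted p = 0.0253) and Creld2 to -1.07 ± 0.43 (adjusted p = 0.0257). Manf (-0.78), Calr (-0.67) and Hsp90b1 (-0.66) were lower as well. No call of this list held under all 8 other ways of processing: 2 genes were lower with the scanner software's ratios and with the deposited value table, 1 with no filter on dim probes and 0 with median centring, while the median stayed between -0.67 and -0.37. Hspa5, the chaperone BiP, chosen after its value was seen, had -0.82 ± 0.61 and did not pass (adjusted p = 0.0865 by limma). Of 9 genes for the eIF2 kinases and phosphatase, 0 were higher and 1 lower, the RNA-activated kinase Eif2ak2 (-0.80 ± 0.16; adjusted p = 0.0263 by limma), a call lost under 3 of the 8.

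**Figure D4:**
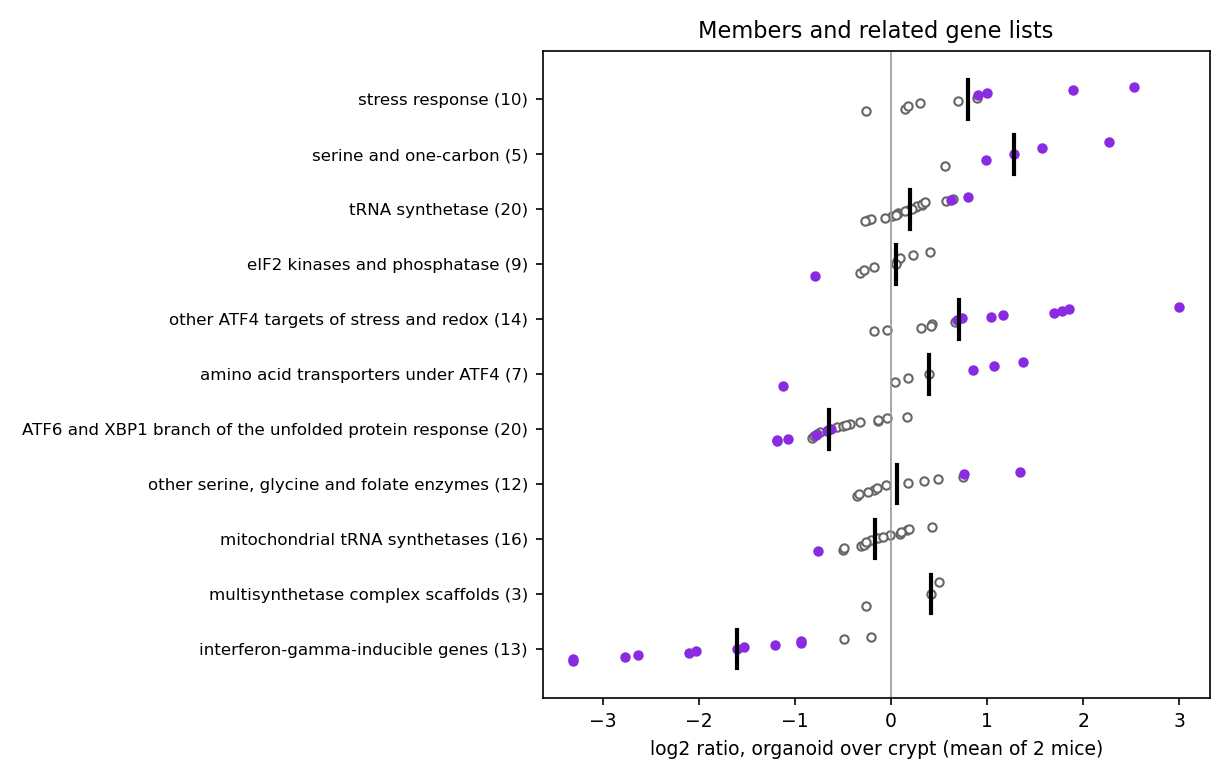
Mean log2 ratio of organoid over crypt over the 2 mice for the 3 groups of members and for related gene lists, with the number of genes tested in brackets; filled points passed the test and black bars are medians. Further ATF4 targets lie mostly right of 0 (median 0.71), whereas genes of the ATF6 and XBP1 branches lie mostly left of it (median -0.64).

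Markers of several cell types differed between the tissues as well. All 9 epithelial markers were well above background in every channel of both tissues, with 1 higher and 5 lower. Markers of enterocytes (10 of 12 lower, median -1.78), Paneth cells (6 of 6, median -1.84) and goblet cells (5 of 7, median -1.62) were lower in organoids, as were 6 of 11 leukocyte markers (median -0.70). These counts varied over the 8 other ways of processing. Lower calls numbered 0 to 5 for epithelium, 4 to 11 for enterocytes, 2 to 6 for Paneth cells, 2 to 5 for goblet cells and 2 to 7 for leukocytes. The leukocyte median ranged from -2.07 with the deposited value table to -0.44 with the organoid in Cy3 alone. The log2 of the summed level went from 19.37 and 19.25 in the crypts to 17.61 and 17.60 in the organoids for enterocytes, from 19.47 and 19.10 to 17.12 and 17.23 for Paneth cells, from 18.50 and 18.52 to 16.42 and 16.64 for goblet cells, and from 16.01 and 16.13 to 13.70 and 14.03 for leukocytes. Signal levels are not comparable between genes, so such a sum follows its brightest probes and does not measure a cell type. The leukocyte sum was mostly the signal of Lyz2, at 15.91 and 16.04 in the crypts and 13.46 and 13.86 in the organoids. The next highest crypt level of that list was that of Gzma, 10.27 and 10.12. Lyz2 had a ratio of -2.32 ± 0.18 (SD, n = 2 mice), but its other tested probe gave -0.59. Of the other lists, 1 of 7 enteroendocrine, 0 of 4 tuft cell, 1 of 4 plasma and B cell, 1 of 3 mesenchymal, 0 of 1 endothelial and 0 of 1 neural markers tested were lower, and none was higher. Of the leukocyte markers, Cd3g, Cd3d and Itgam were well above background in no organoid channel, whereas the T-cell gene Cd3e was in all 4, with a ratio of 0.08 ± 0.19 (SD, n = 2 mice). Secretory cells are rich in chaperones of the endoplasmic reticulum, and the part of these shifts in the members' ratios was not tested.

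Of the 10 calls among the members, those of Atf5, Asns and Psat1 held under all 8 other ways of processing that were tested. Sesn2 was lost under 1 of them, Phgdh under 2, Psph and Sars under 3, Nupr1 under 4, Shmt2 under 5 and Iars under 7.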

How the data were processed

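The scanner files deposited by the authors hold mean spot signal intensity and median local background per dye, on a linear scale. The image software was Agilent Feature Extraction 10.2.1.3 per the file headers, but 9.5.3 per the submitters' processing notes, and the headers place probes on mm9. The deposited log10 ratio is the scanner software's own. The authors' deposited value table holds log2 ratios of Cy5 over Cy3 by its match to the scanner ratios (r from 0.978 to 0.992). Each column has a median of 0 over the non-control probes and holds 6734 to 8950 values of exactly 0. The sources used here do not say how these zeros arose, or whether and how the table was centred.

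Background correction by normexp (offset 50) and loess within each array, in which control spots had weight 0, were run in limma 3.58.1 (R 4.3.3). Outlier-marked spots (161 to 197 per array) were dropped, and repeat spots of 1 probe averaged. The dye labels gave the direction of each ratio, set as organoid over crypt. The test took the 21923 of 41174 probes without a mark on any of the 4 arrays that exceeded background clearly in every channel of at least 1 tissue. A gene is the files' gene name, represented by its tested probe of highest mean intensity. Listed genes were found through accessions in RefSeq's table. A mouse's 2 arrays were averaged (r between them over all genes was 0.818 and 0.825). Mouse means were tested against 0 by lmFit and eBayes, two-sided, with 1 residual and 4.18 prior degrees of freedom, checked on simulated data. Levels were taken per channel after loess and Aquantile.

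The number of mice, 2, limits the precision. In crypt channels 54.1% to 67.4% of probes, and in organoid channels 51.7% to 61.9%, were well above background. Members and lists were chosen with earlier results of these data known. All members are named. Of each other list, the genes that passed are named, at most the 6 of largest ratio, or the 2 of largest ratio where none passed. The cell type lists are given as counts. Alternatives were median centring, the scanner's ratios, the value table, no filter on dim probes, no background subtraction, the mean over probes, either dye orientation alone, and leaving out a mouse.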

Additional observations from a re-analysis of the deposited data

Results flagged for a closer look

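In 2 members, 1 of the 4 arrays lay far from the other 3, by Dixon's 95% criterion for 4 values. It flags about 1 in 20 groups of independent values by chance, and 35 were examined. The arrays here are pairs within mice, so that rate is approximate. Psat1 was 2.59 on the array of mouse 1 with the organoid in Cy5, where the others gave 2.13 to 2.19. Eprs, which loads glutamate and proline, was -0.28 on the array of mouse 2 with the organoid in Cy5, where the others gave 0.39 to 0.46. The arrays of a mouse are technical repeats with the dyes exchanged. With the organoid in Cy5 given first, the arrays of the other mouse gave 2.19 and 2.13 for Psat1 and 0.46 and 0.46 for Eprs. Whether a difference between hybridisations or an effect of dye set these arrays apart was not tested.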

How the results depend on the processing

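The number of members higher in organoids, 10, was 3 with median centring, 6 with the scanner software's ratios, 6 with the deposited value table and 5 with no filter on dim probes. It was closer to 10 with no background subtraction (11), with the mean over probes (9) and on arrays with the organoid in Cy3 (8) or Cy5 (9) alone. No member was lower under any of these. Over all genes, higher and lower calls numbered 118 and 89 with median centring, 313 and 401 with no filter on dim probes, and 444 and 485 with the organoid in Cy3 alone. They numbered 695 and 790 with the scanner software's ratios, 687 and 799 with the value table, 876 and 980 with no background subtraction, 760 and 806 with the mean over probes, and 1098 and 1119 with the organoid in Cy5 alone, against 859 and 858. Median centring shifted the median of all genes to 0.17.

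The median of the stress response ranged from 0.29 without mouse 1 to 0.81 without mouse 2. That of the serine and one-carbon enzymes ranged from 0.97 to 1.59 and that of the synthetases from 0.03 to 0.45. No test was possible with 1 mouse. The fit is paired as it stands, since each ratio sets organoid against crypt of the same mouse.

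Lars passed with no background subtraction (0.65) and with the organoid in Cy5 alone (0.71). Signs turned for members near 0. With the organoid in Cy5 alone Atf4 was -0.17, Farsb -0.19, Qars -0.025, Rars -0.17 and Vars -0.20. With the mean over probes Cebpb was -0.010 and Qars -0.13. With median centring Farsa was 0.015, Hars 0.058, Kars 0.020 and Wars 0.21; relative to the shifted median of all genes these were -0.15, -0.11, -0.15 and 0.036. Farsb was -0.0055 with the value table and -0.024 with no background subtraction, and Hars was 0.0035 with the organoid in Cy3 alone. The cause was not tested.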

Other observations

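The mitochondrial tRNA synthetases that have genes of their own were described as well. Of 16 tested, 0 were higher and 1 lower, with a median of -0.17, against 2 of 20 higher and a median of 0.20 for the synthetases among the members. The gene that fell was Lars2, which loads leucine in mitochondria (-0.76 ± 0.21, SD, n = 2 mice; adjusted p = 0.0338 by limma), and this call was lost under 5 of 8 other ways of processing, among them the scanner software's ratios (adjusted p = 0.0628 by limma). With median centring the median of the list was 0.064, above 0. Iars2, the mitochondrial partner of Iars, chosen after its value was seen, had 0.43 ± 0.05 and did not pass (adjusted p = 0.103 by limma); its other tested probes gave 0.39 and -0.12.

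Wars, the tryptophan synthetase, is known to be induced by interferon gamma as well as by the amino acid response. Of 13 interferon-gamma-inducible genes tested, 11 were lower in organoids and 0 higher, with a median of -1.60. They included the immunoproteasome subunits Psmb8 (-3.31) and Psmb9 (-2.77), the GTPase Igtp (-3.31), the factors Irf1 (-2.64) and Ciita (-2.03) and the MHC class I light chain B2m (-2.10). Ciita was well above background in 3 of 4 organoid channels, and it had -3.55 with the scanner software's ratios and -3.57 with the deposited value table. Under the 8 other ways of processing 6 to 12 of the 13 were lower. Wars had -0.06 ± 0.18 (SD, n = 2 mice; adjusted p = 0.828 by limma), with -0.19 in mouse 1 and 0.06 in mouse 2, and its other probe gave -0.29.

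The composite promoter core lay in 3 of 10 windows of members that were higher and in 6 of 18 of the others, and the difference was not tested. Psat1, Phgdh, Psph and Shmt2, which rose, had no match in the window searched, which says only that these letters are not within it.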
